A study of Mus musculus with 12 samples.

Results

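The genes examined here carry fatty acids into muscle fibers and handle them at the lipid droplet. They were 10 named genes, found by symbol among the 17752 genes of the expression table: Lpl, Cd36, Slc27a1, Fabp3, Acsl1, Dgat1, Dgat2, Plin2, Plin5 and Pnpla2. Each matched 1 row, and all 10 passed the filter on low values that left 12744 genes for testing. RNA-seq was run on the extensor digitorum longus (EDL), a mostly glycolytic muscle of the shin, from male mice of 2 genotypes, WT control and strNrip1-/-. In the strNrip1-/- line, Cre recombinase under the muscle creatine kinase promoter deletes a floxed Nrip1 allele in skeletal muscle and in the heart, and the WT controls were littermates without Cre. Nrip1 encodes RIP140, a corepressor of nuclear receptors. Mice of each genotype were kept sedentary or given voluntary running wheels from 8 weeks of age, and the training period lasted 8 weeks. The 4 groups were therefore WT sedentary, strNrip1-/- sedentary, WT trained and strNrip1-/- trained, with 3 libraries each. The labels number the replicates without naming the animals, so p-values measure the spread between these libraries.

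Fatty acids reach a muscle fiber from circulating triacylglycerol that is split on the capillary wall, cross the plasma membrane with the help of transport proteins, and are carried through the cytosol by a binding protein. Once joined to coenzyme A they are either burned in mitochondria or built into triacylglycerol, which is stored in droplets coated by perilipins. Endurance-trained and oxidative muscle is known for droplets lying against mitochondria, with lipases at the droplet surface releasing the fatty acids again when fuel is needed.

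Expression was deposited as FPKM (fragments per kilobase of transcript, scaled for depth), which allows levels of different genes to be compared per length. The spacing of low values put the depth at 20.15 to 29.2 M fragments per library, so a level of 5 FPKM rested on 100.75 to 146 fragments per kilobase. The Nrip1 level was not lower in libraries labelled strNrip1-/-. Its mean was 3.33 and 3.62 FPKM in labelled WT sedentary and trained libraries, and 15.5 and 17.4 FPKM in those labelled strNrip1-/-. Per the study's methods, the loxP sites flank the last exon, which holds the start and stop codons. FPKM was given per gene and does not show which exons the fragments came from, so this level does not check the labels. Genotype directions below therefore follow the labels, and libraries are named by their label. The 7 markers of skeletal muscle fibers summed to at least 83501 FPKM in every library, and 4 of them (Acta1, Mylpf, Myh4 and Pvalb) were called lower in libraries labelled strNrip1-/- in the average over training states, against 3.91% of all genes. None of the 7 estimates was above 0 in that average. The sum was 110403 to 119229 FPKM in labelled WT sedentary and 83501 to 105641 FPKM in labelled strNrip1-/- sedentary libraries. In trained muscle it was 109000 to 132196 and 93052 to 97415 FPKM, so the labelled genotypes did not overlap in either state. The list includes genes of fast fibers, Myh4 among them, so it does not measure the RNA of muscle fibers of all types. Whether fiber RNA as a whole was lower was not tested. Mitochondrially encoded genes took a mean of 52.3% of the FPKM sum in labelled strNrip1-/- sedentary libraries and 43.7% to 46.0% in the other 3 groups.

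The order of the 10 levels was much the same in each group. Fabp3 stood far above the rest, at 366 FPKM in labelled WT sedentary and 1745 FPKM in labelled strNrip1-/- trained libraries, and its libraries overlapped those of no other member in any group. Pnpla2 and Lpl followed and overlapped each other in every group. Cd36 and Acsl1 came next, again with overlapping libraries, and Slc27a1 after them. Plin2, Dgat2 and Plin5 held the lower ranks and Dgat1 was lowest, at 6.70 to 7.88 FPKM. The exchange of ranks came in this lower part. In labelled WT muscle, sedentary or trained, Plin2 lay above Dgat2 and Dgat2 above Plin5 with no overlap, while Plin5 overlapped Dgat1. In labelled strNrip1-/- muscle, Plin5 was clear of Dgat1, and the libraries of Dgat2, Plin2 and Plin5 overlapped their neighbors. The plot of levels by library shows each gene on its own scale.

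**Figure D1:**
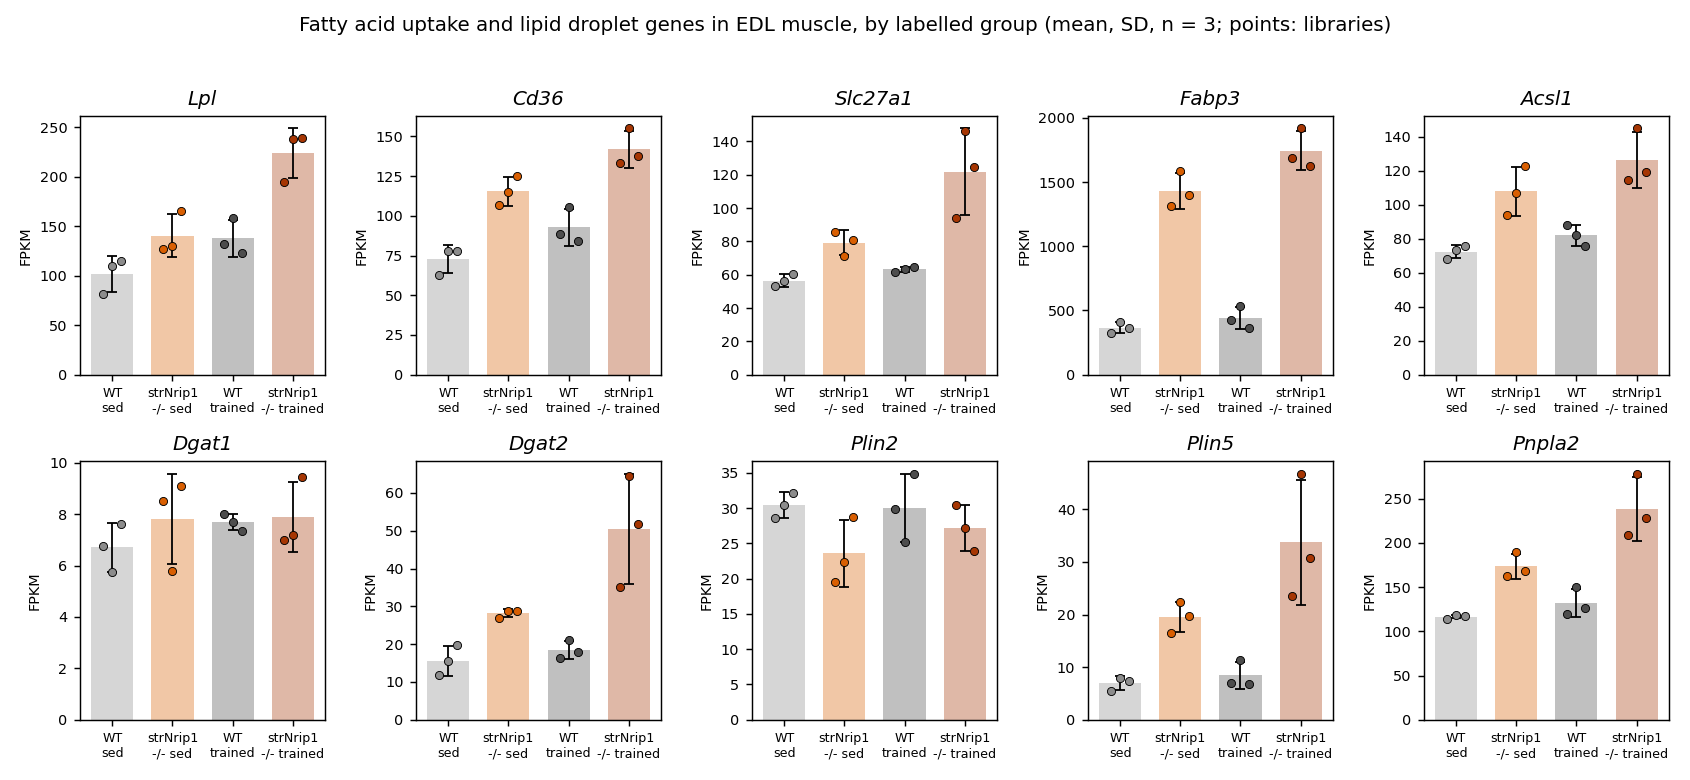
FPKM of each of the 10 genes (vertical axes, each from 0) in the 4 labelled groups; bars are means, whiskers SD and points the 3 libraries of a group. Fabp3 is about 4 times as high in both labelled strNrip1-/- groups (means 1433 and 1745 FPKM against 366 and 439 FPKM), while Dgat1 and Plin2 show no such step.

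The main question was which of these genes differ with the genotype label, and whether they do so at rest and after training. Calls required a limma p under 0.05 after Benjamini-Hochberg adjustment over all genes tested, and a fold change above 1.2 on the log2(FPKM + 0.5) scale. In sedentary muscle 5 of the 10 were called, all higher in libraries labelled strNrip1-/-: Cd36, Fabp3, Acsl1, Plin5 and Pnpla2. Of all genes tested, 1.92% were called higher in that comparison. In trained muscle 8 of 10 were called, again all higher, the 5 above with Lpl, Slc27a1 and Dgat2, against 3.21% of all genes. The same 8 were called when the sedentary and trained differences were averaged, against 4.9% of all genes. Neither Plin2 nor Dgat1 was called in any of the 3 comparisons. The median log2 fold change of the 10 genes was 0.57 in sedentary and 0.77 in trained muscle, where the median over all genes tested was −0.0010 and 0.0066.

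Separation of single libraries followed the same line. For 8 genes, every labelled strNrip1-/- sedentary library lay above every labelled WT sedentary library, which held for 9.79% of all genes tested. The trained groups were likewise separated for 8 genes, against 13.9% of all genes. With sedentary and trained libraries pooled, 6 against 6, the genotypes did not overlap for 7 genes, against 2.97% of all genes. Lpl dropped out of that count, because a labelled WT trained library at 159 FPKM lay above a labelled strNrip1-/- sedentary library at 126 FPKM. The forest plot of the genotype differences shows the estimates for both training states.

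**Figure D2:**
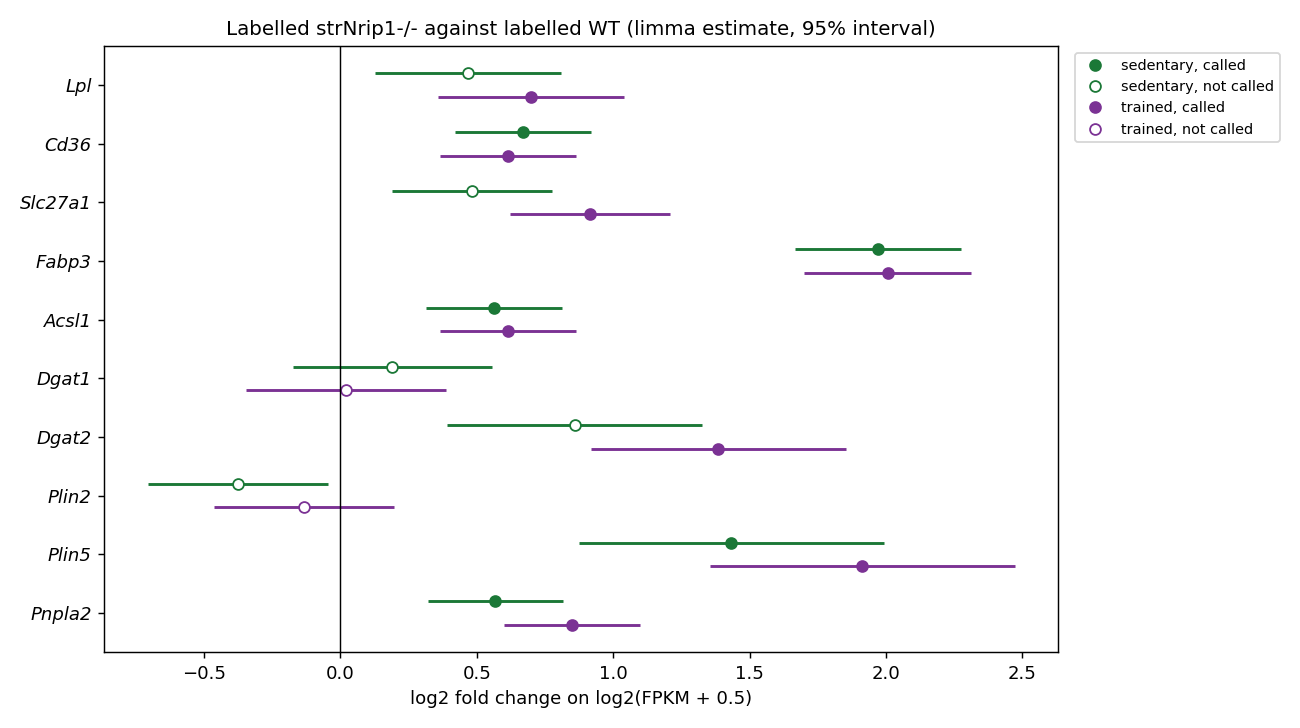
Log2 fold change of libraries labelled strNrip1-/- over those labelled WT (horizontal axis, log2(FPKM + 0.5) scale) for each gene, in sedentary and trained muscle; lines are 95% intervals from limma and filled points are called. Fabp3 (1.97 and 2.01) and Plin5 (1.43 and 1.91) lie farthest to the right, and the intervals of Dgat1 cover 0 in both states.

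Delivery and uptake began with Lpl (ENSMUSG00000015568, chromosome 8, 68880491 to 68907448, plus strand, GRCm38 as for all genes here), the lipase that splits triacylglycerol in circulating lipoproteins at the capillary wall. In sedentary muscle Lpl was at 81.2, 109.7 and 115 FPKM in labelled WT and at 126, 129.9 and 165 FPKM in labelled strNrip1-/- libraries. After training the labelled WT libraries were at 132, 159 and 122 FPKM and those labelled strNrip1-/- at 195, 238 and 239 FPKM. The genotypes did not overlap within either training state, and the trained labelled strNrip1-/- libraries stood above all 9 others. The log2 fold change was 0.47 (SE 0.155, limma adjusted p = 0.145) in sedentary and 0.70 (SE 0.155, limma adjusted p = 0.0238) in trained muscle, so Lpl was called in the trained state. That call did not survive leaving out labelled WT trained replicate 1 or 3 or labelled strNrip1-/- trained replicate 2 or 3, with limma adjusted p of 0.0771 to 0.0960.

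Cd36 (ENSMUSG00000002944, chromosome 5, 17781690 to 17888801, minus strand), the scavenger receptor that takes up long-chain fatty acids at the plasma membrane, was higher by a like amount at rest and after training. Sedentary libraries labelled WT were at 62.6, 77.7 and 77.7 FPKM, and those labelled strNrip1-/- at 107, 115 and 125 FPKM. In trained muscle the corresponding values were 88.4, 106 and 84.1 FPKM for labelled WT and 133, 155 and 138 FPKM for labelled strNrip1-/-. Every labelled strNrip1-/- library thus exceeded every labelled WT library, trained WT included. On the log2 scale Cd36 was higher by 0.67 (SE 0.113, limma adjusted p = 0.00891) in sedentary and 0.61 (SE 0.113, limma adjusted p = 0.0101) in trained muscle, or 1.59 and 1.53 times.

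Slc27a1 (ENSMUSG00000031808, chromosome 8, 71568882 to 71587302, plus strand), which encodes the fatty acid transport protein FATP1, was tightly grouped in labelled WT muscle, at 53.1, 56.0 and 60.4 FPKM at rest and 61.7, 63.7 and 64.6 FPKM after training. Labelled strNrip1-/- libraries were at 85.8, 71.1 and 80.9 FPKM at rest and at 94.2, 146 and 125 FPKM after training. The labelled genotypes did not overlap, whatever the training state, and trained labelled strNrip1-/- libraries were the most spread. The difference was 0.48 (SE 0.134, limma adjusted p = 0.0806) on the log2 scale in sedentary muscle, which was not called, and 0.91 (SE 0.134, limma adjusted p = 0.00318) in trained muscle. In the average over both states it was 0.70 (SE 0.0946, limma adjusted p = 8.53e-04).

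Fabp3 (ENSMUSG00000028773, chromosome 4, 130308595 to 130315463, plus strand), the heart and muscle fatty acid binding protein of the cytosol, had the largest difference of the 10 genes. Its levels in sedentary muscle were 325, 409.6 and 362 FPKM in labelled WT and 1312, 1586 and 1399.9 FPKM in labelled strNrip1-/- libraries. Trained libraries were at 423, 532 and 362 FPKM when labelled WT and at 1690.4, 1917 and 1628 FPKM when labelled strNrip1-/-. The lowest labelled strNrip1-/- library was more than 2 times as high as the highest labelled WT library. Estimated log2 fold changes were 1.97 (SE 0.139, limma adjusted p = 4.54e-05) in sedentary and 2.01 (SE 0.139, limma adjusted p = 3.13e-05) in trained muscle, corresponding to 3.92 and 4.02 times. The 3′ end of Fabp3 shares 81 bases with Zcchc17 on the other strand, from 130315383 to 130315463, and the library kit does not keep strand. Zcchc17 stayed at 7.83 to 9.83 FPKM in the 12 libraries, and the pseudogene Fabp3-ps1 at no more than 1.68 FPKM.

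Acsl1 (ENSMUSG00000018796, chromosome 8, 46471037 to 46536051, plus strand) encodes the acyl-CoA synthetase that activates long-chain fatty acids, the step that commits them to oxidation or storage. Its sedentary levels were 68.1, 73.6 and 75.8 FPKM in labelled WT and 93.8, 107 and 123 FPKM in labelled strNrip1-/- libraries. Trained muscle gave 88.4, 82.0 and 75.9 FPKM for labelled WT and 114, 145 and 119 FPKM for labelled strNrip1-/-. No labelled WT library reached the lowest labelled strNrip1-/- library. Acsl1 was higher by 0.56 (SE 0.113, limma adjusted p = 0.0208) on the log2 scale in sedentary and by 0.61 (SE 0.113, limma adjusted p = 0.0102) in trained muscle. The sedentary call was lost without any of the 3 labelled WT sedentary libraries, or without labelled strNrip1-/- sedentary replicate 2 or 3 (limma adjusted p 0.0526 to 0.0933), and also once libraries were brought to a common FPKM sum (0.109).

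The last step of triacylglycerol synthesis can be made by either of the unrelated acyltransferases DGAT1 and DGAT2, and their genes differed in these libraries. Dgat2 (ENSMUSG00000030747, chromosome 7, 99153658 to 99182719, minus strand) was at 11.8, 15.5 and 19.7 FPKM in labelled WT sedentary and at 27.0, 28.7 and 28.9 FPKM in labelled strNrip1-/- sedentary libraries. In trained muscle it was at 16.5, 21.2 and 18.0 FPKM in labelled WT and at 35.1, 64.4 and 51.9 FPKM in labelled strNrip1-/- libraries. All 6 labelled strNrip1-/- libraries lay above all 6 labelled WT libraries, with the widest spread among the trained ones. The log2 fold change was 0.86 (SE 0.213, limma adjusted p = 0.0528) in sedentary muscle, just outside the threshold, and 1.38 (SE 0.213, limma adjusted p = 0.00415) in trained muscle. The sedentary difference passed the threshold in 8 of 24 other analyses. Over the 24, its estimate ran from 0.675 to 1.035 and its limma adjusted p from 0.0211 to 0.209.

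Dgat1 (ENSMUSG00000022555, chromosome 15, 76502015 to 76511953, minus strand) was the least expressed of the 10 genes and showed no step between the labelled genotypes. At rest it was at 6.74, 5.75 and 7.62 FPKM in labelled WT and 8.52, 5.80 and 9.11 FPKM in labelled strNrip1-/- libraries. After training the values were 8.01, 7.70 and 7.35 FPKM for labelled WT and 7.01, 7.17 and 9.45 FPKM for labelled strNrip1-/-. The groups overlapped in both comparisons. The log2 fold change was 0.19 (95% interval −0.18 to 0.56, limma adjusted p = 0.668) in sedentary and 0.021 (95% interval −0.34 to 0.39, limma adjusted p = 0.963) in trained muscle. These intervals still allow a rise of up to about 0.56 on the log2 scale.

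The ratio of Dgat2 to Dgat1 within a library compares the enzymes with little influence of scaling between libraries. At rest its log2 value was 1.14 ± 0.332 for labelled WT and 1.81 ± 0.347 for labelled strNrip1-/- libraries. After training it was 1.21 ± 0.204 and 2.57 ± 0.444, respectively (SD, n = 3 in every group). The highest labelled WT library was at 1.40 and the lowest labelled strNrip1-/- library at 1.61. The genotype difference of 1.02 gave an exact two-sided permutation p of 0.005 over the 400 reassignments of labels within training state, the smallest p they can give. Dgat2 alone already separated these libraries by genotype label, so this p is not independent of that result.

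Perilipins coat the droplet surface, and the 2 that are among the 10 genes, Plin5 and Plin2, differed in their values. Plin5 (ENSMUSG00000011305, chromosome 17, 56111601 to 56117596, minus strand), which marks droplets in oxidative tissue and ties them to mitochondria, was at 5.45, 8.03 and 7.37 FPKM in labelled WT sedentary and at 16.5, 22.3 and 19.7 FPKM in labelled strNrip1-/- sedentary libraries. After training it was at 7.06, 11.5 and 6.89 FPKM in labelled WT and at 23.6, 46.8 and 30.8 FPKM in labelled strNrip1-/- libraries. No labelled WT library reached the lowest labelled strNrip1-/- library, although the trained labelled strNrip1-/- libraries varied widely among themselves. The log2 fold change was 1.43 (SE 0.254, limma adjusted p = 0.0115) in sedentary and 1.91 (SE 0.254, limma adjusted p = 0.00179) in trained muscle, or 2.70 and 3.77 times. Without labelled WT sedentary replicate 1, the sedentary difference was 1.28 with a limma adjusted p of 0.0594.

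Plin2 (ENSMUSG00000028494, chromosome 4, 86648386 to 86670060, minus strand), the perilipin found on droplets of most cell types, did not share the rise. Labelled WT sedentary libraries were at 28.6, 30.5 and 32.2 FPKM and labelled strNrip1-/- sedentary libraries at 19.6, 22.4 and 28.8 FPKM. Trained libraries were at 29.9, 25.2 and 34.9 FPKM when labelled WT and at 30.5, 27.1 and 23.9 FPKM when labelled strNrip1-/-. The groups overlapped in both states, and the estimates pointed lower. They were −0.38 (95% interval −0.71 to −0.047, limma adjusted p = 0.234) on the log2 scale in sedentary and −0.13 (95% interval −0.46 to 0.20, limma adjusted p = 0.676) in trained muscle, and the second turned to 0.066 when the 3 libraries highest in adipocyte markers were left out. In the average over training states Plin2 was at −0.26 (limma adjusted p = 0.166), and it was called lower, at −0.33 (limma adjusted p = 0.0485), without labelled strNrip1-/- sedentary replicate 3.

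The log2 ratio of Plin5 to Plin2 was −2.07 ± 0.215 for labelled WT and −0.26 ± 0.268 for labelled strNrip1-/- libraries at rest. After training it was −1.79 ± 0.608 and 0.26 ± 0.576, respectively (SD, n = 3 in every group). In labelled WT muscle Plin5 was below Plin2 in all 6 libraries, with the highest ratio at −1.10. The lowest labelled strNrip1-/- ratio was −0.54. Plin5 was also below Plin2 in every labelled strNrip1-/- sedentary library and in labelled strNrip1-/- trained replicate 1 (−0.36). It was above Plin2 in trained replicates 2 (0.78) and 3 (0.36). The genotype difference of 1.93 gave an exact two-sided permutation p of 0.005, again the smallest that the 400 reassignments can give. As Plin5 alone already separated the same libraries, this p too is not independent of the result for the single gene.

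**Figure D3:**
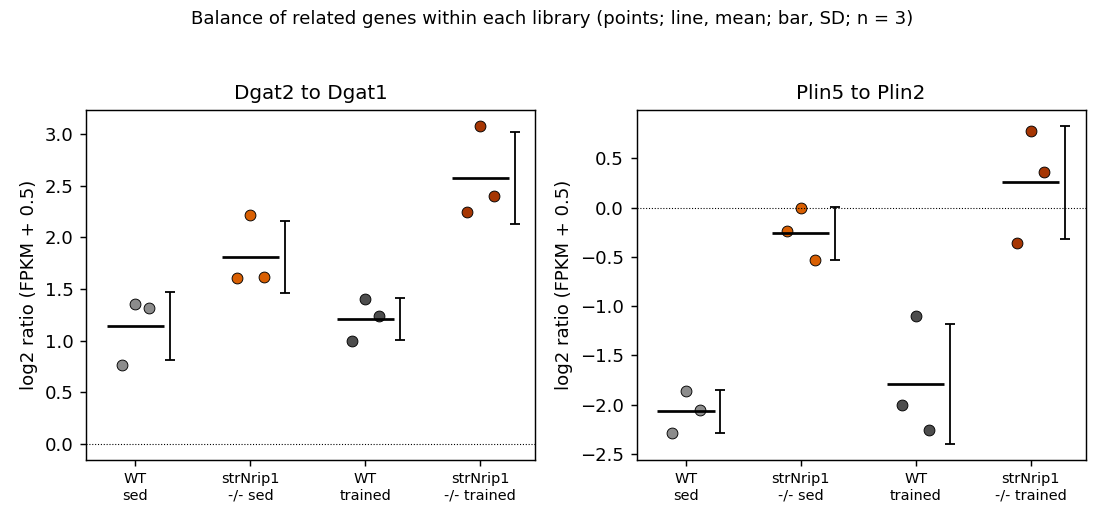
Log2 ratio of FPKM + 0.5 within each library (vertical axes) for Dgat2 to Dgat1 and for Plin5 to Plin2, by labelled group; points are libraries, lines means and bars SD (n = 3). All labelled WT libraries lie at or below 1.40 and −1.10, and all labelled strNrip1-/- libraries at or above 1.61 and −0.54.

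RIP140 acts through nuclear receptors, many of which bind DNA at AGGTCA, so the promoters of the genes at the extremes are shown. The sequences are from the RefSeq promoter table on GRCm38.p6, read 5′ to 3′ on the gene's strand and limited to bases upstream of the annotated gene. Capitals mark AGGTCA or its reverse complement. Plin5 (chr17:56117597-56117798, minus strand) and Plin2 (chr4:86670061-86670309, minus strand) are set side by side because their genotype estimates differed in sign, and Fabp3 (chr4:130308488-130308594, plus strand) because it differed most.
Plin5: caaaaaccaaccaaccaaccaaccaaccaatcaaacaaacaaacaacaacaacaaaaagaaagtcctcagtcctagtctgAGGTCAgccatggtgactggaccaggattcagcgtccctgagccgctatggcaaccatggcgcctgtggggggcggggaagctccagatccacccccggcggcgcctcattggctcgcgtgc
Plin2: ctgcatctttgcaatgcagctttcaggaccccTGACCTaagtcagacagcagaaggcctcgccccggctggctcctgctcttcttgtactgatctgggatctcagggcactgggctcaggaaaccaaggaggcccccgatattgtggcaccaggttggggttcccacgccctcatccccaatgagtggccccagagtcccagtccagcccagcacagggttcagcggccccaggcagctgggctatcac
Fabp3: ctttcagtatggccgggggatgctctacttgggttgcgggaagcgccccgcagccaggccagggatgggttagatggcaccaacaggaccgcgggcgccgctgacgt

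The table held 11 promoters for 7 of the 10 genes, and none for Lpl, Dgat1 or Dgat2. In the 250 bases before each start, searched on both strands, AGGTCA was present in 3 of these 11 promoters and in 14.0% of all 32851 promoters. The matches lay 170 bases before a start of Plin5, 218 before that of Plin2 and 228 before that of Cd36. The letters were in the promoter of Plin5, which was called, and of Plin2, which was not, and were not found in the Fabp3 window. Whether they bear on the genotype differences was not tested. Longer strings that contain AGGTCA or a form of it, AAGGTCA, TCAAGGTCA and the direct repeats AGGTCANAGGTCA and AGGNCANAGGNCA, were in none of the 11, against 4.08%, 0.387%, 0.0335% and 0.338% of all promoters.

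Pnpla2 (ENSMUSG00000025509, chromosome 7, 141455198 to 141460743, plus strand) encodes ATGL, the lipase that takes the first fatty acid from stored triacylglycerol. In sedentary muscle it was at 114, 118 and 117 FPKM in labelled WT and at 163, 189 and 169 FPKM in labelled strNrip1-/- libraries. Trained libraries were at 119, 149.99 and 126 FPKM when labelled WT and at 209, 278 and 228 FPKM when labelled strNrip1-/-. The genotypes did not overlap, and the 3 trained labelled strNrip1-/- libraries were the highest of the 12. For Pnpla2 the log2 fold change was 0.57 (SE 0.113, limma adjusted p = 0.0198) in sedentary and 0.85 (SE 0.113, limma adjusted p = 0.00179) in trained muscle. In sedentary muscle the call was lost without any of the 3 labelled WT sedentary libraries or without labelled strNrip1-/- sedentary replicate 2 (limma adjusted p 0.0620 to 0.0830).

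The effect of wheel training was asked within each labelled genotype. No member was called by limma in labelled WT, where 0% of all genes were called, nor in labelled strNrip1-/- muscle, also with 0% of all genes. In labelled WT muscle, 2 members (Lpl and Cd36) and 1061 genes had an unadjusted p under 0.05, and the lowest adjusted p of a member was 0.464. In labelled strNrip1-/- muscle, 6 members and 1544 genes had an unadjusted p under 0.05, and the lowest adjusted p of a member was 0.200. Averaged over genotypes, 0 of the 10 were called against 0.118% of all genes, 8 members and 1466 genes had an unadjusted p under 0.05, and the lowest adjusted p was 0.0956, for Lpl.

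The estimates for training were nonetheless mostly above 0. The median of the 10 log2 fold changes was 0.22 in labelled WT and 0.37 in labelled strNrip1-/- muscle, against 0.0017 and 0.0090 over all genes tested. In labelled WT muscle, 5 genes had every trained library above every sedentary one, which 7.76% of all genes did. In labelled strNrip1-/- muscle 7 genes were separated in this way, against 9.4% of all genes. The largest estimate was that of Dgat2 in labelled strNrip1-/- muscle, at 0.79 (SE 0.213, limma adjusted p = 0.236), followed by Plin5 at 0.73 (SE 0.254, limma adjusted p = 0.306), Lpl at 0.67 (SE 0.155, limma adjusted p = 0.200) and Slc27a1 at 0.60 (SE 0.134, limma adjusted p = 0.200). In labelled WT muscle the same genes gave 0.26, 0.25, 0.44 and 0.17, and Cd36 gave 0.35 (SE 0.113, limma adjusted p = 0.464). With libraries brought to a common FPKM sum, Lpl, Slc27a1, Fabp3 and Pnpla2 were called higher with training in labelled strNrip1-/- muscle (limma adjusted p 0.0298 to 0.0465), and that scaling moved the median of all genes by 0.16.

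**Figure D4:**
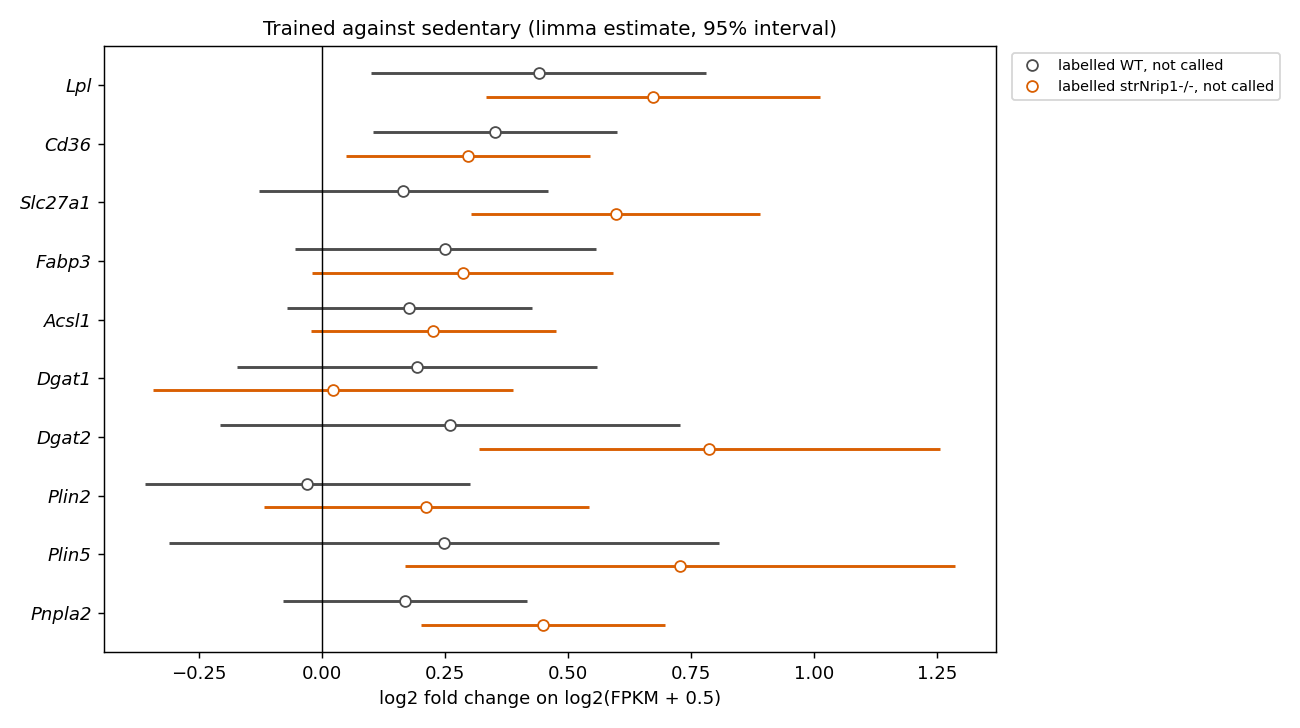
Log2 fold change of trained over sedentary libraries (horizontal axis, log2(FPKM + 0.5) scale) for each gene, in labelled WT and labelled strNrip1-/- muscle; lines are 95% intervals from limma. No point is called; Dgat2, Plin5, Lpl and Slc27a1 in labelled strNrip1-/- muscle have the largest estimates, at 0.79, 0.73, 0.67 and 0.60.

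Whether training and genotype combine was tested as an interaction. No member passed in limma, with 0% of all genes passing, while 1 member and 989 genes had an unadjusted p under 0.05. The member was Slc27a1, whose genotype difference was larger by 0.43 (SE 0.189, limma adjusted p = 0.635) on the log2 scale in trained than in sedentary muscle. For Dgat2 the interaction was 0.53 (SE 0.301, limma adjusted p = 0.696) and for Plin5 0.48 (SE 0.360, limma adjusted p = 0.775). Fabp3, at 0.036 (95% interval −0.40 to 0.47), and Cd36, at −0.054 (95% interval −0.41 to 0.30), had estimates near 0. The larger count of called members in trained muscle was therefore not shown to be a difference between training states.

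A wider list of 56 genes of the same pathway was examined in the same fits, of which 54 were in the table and 49 were tested. In the average over training states 6 were called higher and 1 lower in libraries labelled strNrip1-/-, and 42 were not called, where 4.9% of all genes were called higher and 3.91% lower. The median log2 fold change of the list was 0.17, against 0.0034 over all genes tested. In sedentary muscle 1 was called higher (Got2) and 1 lower (Acsl3), calls that were lost in 5 of 24 and 7 of 23 other analyses. That count is near the share of all genes, of which 1.92% were called higher and 1.59% lower. In trained muscle 5 were called higher (Got2, Agpat2, Agpat3, Lpin1 and Fitm2) and 1 lower (Acsl3), each lost in 5 to 10 other analyses, against 3.21% and 2.77% of all genes. No gene of the list was called for training or for the interaction.

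The steps of the pathway held few of these calls each, and with 4.9% of all genes called higher a single call in a step is not a result about that step. Among uptake and binding genes 1 of 14 was called, Got2, the mitochondrial aspartate aminotransferase that has also been described as a fatty acid binding protein of the plasma membrane. Got2 averaged 282 and 309 FPKM in labelled WT sedentary and trained and 410.1 and 432 FPKM in labelled strNrip1-/- libraries, a log2 difference of 0.51 (SE 0.0739, limma adjusted p = 0.00124). Fabp4, a fatty acid binding protein of adipocytes and capillary endothelium, was not called, at 171 and 177 FPKM in labelled WT and 214 and 197 FPKM in labelled strNrip1-/- libraries. Of the 6 activation genes tested, 1 was called, in the opposite direction to Acsl1. Acsl3, an acyl-CoA synthetase of the endoplasmic reticulum and nascent droplets, averaged 6.12 and 6.43 FPKM in labelled WT and 2.74 and 3.04 FPKM in labelled strNrip1-/- libraries (log2 difference −0.97, SE 0.153, limma adjusted p = 0.00220).

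In triacylglycerol synthesis 3 of 13 were called, all higher, and each encodes an enzyme that acts before the DGAT step. Lpin1, a phosphatidate phosphatase that makes diacylglycerol, averaged 6.83 and 9.55 FPKM in labelled WT sedentary and trained and 11.5 and 21.1 FPKM in labelled strNrip1-/- libraries (log2 difference 0.90, SE 0.155, limma adjusted p = 0.00350). The acyltransferases Agpat2 and Agpat3, which make phosphatidate, were higher by 0.73 (limma adjusted p = 0.00298) and 0.34 (limma adjusted p = 0.00890). Among 11 coat and droplet formation genes, Fitm2, which helps droplets bud from the endoplasmic reticulum, was called at 0.35 (SE 0.0592, limma adjusted p = 0.00338). Plin3 and Plin4, further perilipins, were not called. Of 5 lipolysis genes, Lipe, the hormone-sensitive lipase that follows ATGL, was called at 0.43 (SE 0.116, limma adjusted p = 0.0369), and this call was lost in 10 of 23 other analyses. Abhd5, the activator of ATGL, and G0s2, its inhibitor, were not called.

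**Figure D5:**
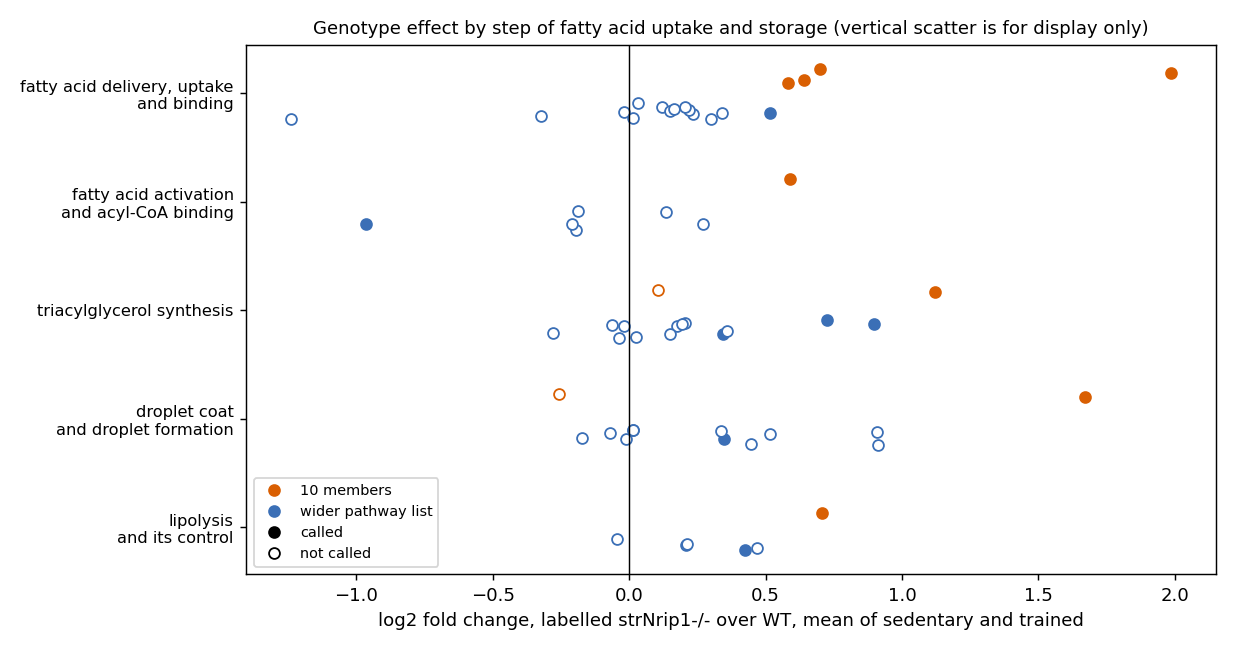
Log2 fold change of libraries labelled strNrip1-/- over those labelled WT, averaged over training states (horizontal axis), for the 10 genes and the 49 tested genes of the wider list, by step of the pathway; filled points are called and vertical scatter has no meaning. Fabp3 (1.99), Plin5 (1.67) and Dgat2 (1.12) lie beyond every gene of the wider list on the higher side, and Acsl3 (−0.97) is the called gene on the lower side.

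Genes whose pattern over the 12 libraries lay nearest to that of a member were sought for the 5 members called in both training states, among the 6848 genes that averaged 5 FPKM or more. The measure was the mean absolute difference of the centered log2 levels. Nearest to Cd36 were Slc25a20 (0.0767), Acadl (0.0824) and Hadha (0.0927), which serve mitochondrial fatty acid oxidation as a carnitine carrier, an acyl-CoA dehydrogenase and a subunit of the trifunctional protein. Pnpla2 lay nearest to Plbd2 (0.0873), Acaa2 (0.0914), a thiolase of the same pathway, and Hadha (0.0962). Acsl1 was followed by Cluh (0.0738), Entpd4b (0.0840) and Etfdh (0.0871), the last of which passes electrons from fatty acid oxidation to the respiratory chain. Fabp3 had looser neighbors, Slc38a10 (0.146), Tmem37 (0.167) and Igsf8 (0.218). Nearest to Plin5 were Wfs1 (0.243) and 2 other members, Fabp3 (0.250) and Dgat2 (0.276). These distances are descriptions over libraries that also share the genotype label.

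Bulk muscle holds other cells, and fewer cells of a type cannot be told apart from less RNA per cell. Adipocytes express most of the 10 genes and varied between libraries. The summed level of 7 adipocyte markers was 12.5 to 25.7 FPKM in labelled WT and 43.6 to 117 FPKM in labelled strNrip1-/- libraries at rest. After training it was 35.2 to 77.0 FPKM in labelled WT and 43.9 to 114 FPKM in labelled strNrip1-/- libraries. The sedentary genotypes did not overlap in this sum. None of the 7 markers was at 0 in all libraries, and limma called none of the 5 that passed the filter for genotype averaged over training states, where 2 of them (Cidec and Cfd) had an unadjusted p under 0.05. In the sedentary genotype comparison limma called none of the 5 either. Cfd (log2 difference 1.70), Cidec (1.39) and Adipoq (1.30) had an unadjusted p under 0.05 there, and Plin1 and Retn did not. Adipocyte marker sums were highest in replicate 3 of labelled strNrip1-/- sedentary, labelled strNrip1-/- trained and labelled WT trained muscle. Without these 3 libraries Fabp3 alone was called in sedentary and in trained muscle, and 7 members in the average, where Lpl had a limma adjusted p of 0.0712. The estimates of Plin5 (1.42 and 1.83 in sedentary and trained muscle), Fabp3 (1.98 and 1.92) and Pnpla2 (0.59 and 0.85) moved by less than 0.1. So did those of Cd36 (0.61 and 0.57), Slc27a1 (0.47 and 0.90), Acsl1 (0.47 and 0.59) and Dgat2 (0.84 and 1.33). Those of Lpl fell to 0.35 and 0.57. Dgat1 went to 0.074 and −0.14, and Plin2 to −0.53 and 0.066. Fewer libraries were fitted in that analysis, and the remaining labelled strNrip1-/- libraries, at 43.6 to 48.8 FPKM, were still above the remaining labelled WT libraries in this sum. The part of adipocyte RNA in the genotype differences was not tested beyond this.

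Endothelial markers, 9 genes that include the capillary partner of lipoprotein lipase, summed to 186 to 190.1 FPKM in labelled WT sedentary and 189.95 to 228 FPKM in labelled strNrip1-/- sedentary libraries. In trained muscle they summed to 169 to 199.7 FPKM in labelled WT and 217 to 231 FPKM in labelled strNrip1-/- libraries, without overlap. In the average all 9 estimates were above 0, and 1 of the 9, Cdh5, was called higher, against 4.9% of all genes. Cdh5, Pecam1, Flt1, Gpihbp1 and Tek had a limma unadjusted p under 0.05 there, and the other endothelial markers did not. Pecam1 had a limma adjusted p of 0.0286 but a fold change of 1.18, below the cut of 1.2. Liver transcripts were also present: 7 hepatocyte genes, Alb among them, summed to 462 to 798 FPKM in the 6 sedentary libraries and to 122 to 506 FPKM in the 6 trained ones, the highest trained library being labelled WT replicate 1. Limma called none of the 7 for genotype or training. For training averaged over genotypes all 7 nevertheless had an unadjusted p under 0.05 and were lower in trained libraries, by log2 differences of −1.48 to −1.16 (adjusted p 0.0684 to 0.177, Alb and Apoa1 at the extremes of the log2 range). Limma called none of the 5 fibroblast and 5 macrophage markers for genotype in the average, where 1 (Adgre1) had an unadjusted p under 0.05, and for training averaged over genotypes it called Col1a1 alone, higher in trained libraries (log2 difference 0.71, adjusted p = 0.0227). The part of endothelial, hepatocyte, fibroblast and macrophage RNA in the values of the 10 genes was not tested.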

How the data were processed

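RNA-seq was measured in 12 EDL libraries, 3 in each of 4 groups taken from the sample labels. Per the study's methods and the submitters' processing notes, transcripts were quantified with Salmon 1.10.2 against mm10 (GRCm38) and analyzed with DESeq2 1.44.0. Libraries came from a kit that keeps no strand. The authors deposited FPKM values per gene and library. How the FPKM were computed and by what rule genes were kept is not given in the sources used here. The 8 columns of the authors' own comparisons (log2 fold changes and adjusted p-values) were not used.

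Genes that averaged 0.5 FPKM or more were tested on log2(FPKM + 0.5) with limma 3.58.1 (R 4.3.3), with 4 group means, all 12 libraries and a mean-dependent variance prior. Two-sided p-values were adjusted by Benjamini-Hochberg over all 12744 genes. This scale understates changes of low genes. Calls needed an adjusted p under 0.05 and a fold change above 1.2, and the interaction the adjusted p alone. The scripts were tested on simulated data. Within-library log2 ratios were tested by exact permutation of genotype labels within training state.

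The 10 members and all gene lists were chosen with earlier results of these data known, and the hepatocyte list after its values were seen. Named genes were the 10 members, at most 3 called genes per role of the wider list by size in the averaged comparison, Nrip1, and 3 nearest profiles per member called in both training states. Fabp4, Plin3, Plin4, Abhd5 and G0s2 were named after their values were seen. Gene positions came from GENCODE M21 and promoters from RefSeq.

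Depth was estimated from 1613 genes with a single transcript over 1500 nt. Between 99.2% and 99.6% of their low values lay within 0.15 of a whole fragment, against 30.0% by chance. Median ratios to the typical library were 0.983 to 1.01, so libraries had been scaled to each other. Depth limits cover counting error only. No pair of libraries held identical values. Alternatives covered the pseudocount, filter, scaling, libraries fitted, variance prior, the replicate number as a block and leaving out each library.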

Additional observations from a re-analysis of the deposited data

How the results depend on the processing

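Of the genotype log2 differences of the members, of Nrip1 and of the named genes of the wider list, 1505 were recomputed under other settings: 1389 kept direction and side of the threshold, 93 lost the call, 17 gained it and 6 turned in sign. Leaving out a trained library cannot move a sedentary estimate, only its p, and the reverse also holds. Differences that were called in neither analysis count among those kept, so the total is not a measure of stability. Fabp3 stayed called in both training states in all 24 other analyses, and both within-library ratios kept their direction and their exact p under 0.05 in every analysis run. The labelled genotypes did not overlap in either ratio, so leaving out libraries could not reverse them, and those analyses add no support of their own. The main analysis called 447 genes in sedentary, 762 in trained and 1122 in the averaged comparison. Fitting only the libraries of a comparison gave 166 and 445 genes in the sedentary and trained comparisons. Leaving out the 3 libraries highest in adipocyte markers, chosen after seeing the data, gave 205, 124 and 647 genes and 1 member, Fabp3, in sedentary and in trained muscle, with fewer libraries fitted. Under that setting Dgat1 turned to −0.14 in trained muscle and −0.032 in the average, and Plin2 to 0.066 in trained muscle. Removing trends with GC content, length and level, also added after seeing results, turned Dgat1 in trained muscle to −0.089 and the training estimate of Plin2 in labelled WT to 0.042. Rescaling to the same sum called 4 members for training in labelled strNrip1-/- muscle and 1 (Lpl) in the average, and moved the median of all genes by −0.14 in the sedentary genotype comparison and 0.16 for training in labelled strNrip1-/- muscle. Rescaling over nuclear genes turned the training estimate of Dgat1 in labelled strNrip1-/- muscle to −0.0057. For these changes the cause was not tested.

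Leaving out each library in turn gave 2 to 7 members and 163 to 478 genes called in sedentary muscle. The lowest counts were 2 members without labelled WT sedentary replicate 1 and 3 without labelled WT sedentary replicate 2 or labelled strNrip1-/- sedentary replicate 2. Genes called in sedentary muscle fell to 163, 222 and 216 without labelled WT sedentary replicate 1, 2 or 3 and to 260 without labelled strNrip1-/- sedentary replicate 1. In trained muscle, 315 to 874 genes were called, with 385 without labelled WT trained replicate 1 or 3, 333 when labelled strNrip1-/- trained replicate 2 was dropped and 315 for replicate 3. For training averaged over genotypes 0 to 1 members were called, the 1 being Lpl without labelled strNrip1-/- sedentary replicate 3. Over the same fits, the Dgat1 estimate ran from −0.11 to 0.094 for genotype in trained muscle and from −0.16 to 0.14 for training in labelled strNrip1-/- muscle, and that of Plin2 from −0.14 to 0.087 for training in labelled WT. Same-numbered libraries did not deviate together in every pair (correlations −0.05 to 0.20 across genes), so the numbers were not taken to pair animals. With the number as a replicate block, 6 members were called in sedentary muscle, Dgat2 joining at a limma adjusted p of 0.0211, 8 in trained muscle and 8 in the average.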
